A study of Silurus lanzhouensis with 6 samples.

Results

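The most abundant transcripts of back muscle were described in 6 individuals of Silurus lanzhouensis, a catfish of the Yellow River. They were chosen by their level: every cluster, the unit of the deposited expression table, with a mean of 1000 FPKM or more over the 6 fish was taken. FPKM is a fragment count divided by the length of the transcript and by the size of the library, so levels of different clusters compare per length. The rule gave 133 of 89579 clusters. The mean over all 6 fish chose them, so their abundance is a description. Near the threshold a cluster can pass through 1 group alone: 3 of the 133 averaged under 1000 FPKM among heaviest fish, and 7 among lightest fish. In those 10 clusters a difference between the groups is not independent of the choice. The 3 heaviest and the 3 lightest fish of 1 rearing tank made up the groups, and each library came from a separate fish. All 6 were reared over 16 weeks in a flow-through system fed with pond water near 24 °C and descended from selected females crossed with wild males. The fish were killed with an anaesthetic before sampling, and the labels name no treatment that differed between the groups. Read counts were not used here, so the depth behind each value is unknown. Over all 28592 clusters tested, heaviest fish 1 was the least like the rest, with a mean Pearson correlation of 0.751 to the other fish where each of them had 0.805 to 0.818. The comparison asks how muscle transcripts differ between fish of 1 tank at both ends of the weight range.

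Back muscle of fishes is mostly fast-twitch white muscle, which powers short bursts of swimming on stored phosphate and glycolysis. Its messenger RNA is known for a steep hierarchy, in which transcripts for sarcomere proteins (actins, myosin chains, tropomyosins, troponins), for calcium-binding parvalbumins, for creatine kinase and for glycolytic enzymes take a large part, together with transcripts of mitochondria and ribosomes. Which of the 133 clusters belongs to which of these families is not known here, because the files give IDs without gene names or sequences. For the same reason the label of muscle was not checked against marker genes. Clusters are therefore called by their rank in mean FPKM, with rank 1 the most abundant.

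The 133 clusters held most of the measured expression in every fish. Their share of summed FPKM was 62.4%, 65.5% and 69.7% in heaviest fish 1, 2 and 3, against 64.5%, 66.3% and 62.9% in lightest fish 1, 2 and 3. The shares overlapped between the groups, with the highest in heaviest fish 3 and the lowest in heaviest fish 1. The mean was 65.9% ± 3.68 among heaviest fish, against 64.6% ± 1.73 among lightest fish (SD, n = 3 per group), a difference of 1.31 percentage points that is smaller than either SD. It turned to -0.38 percentage points without heaviest fish 3, and was 3.03 when heaviest fish 1 was left out. Leaving out lightest fish 2 gave 2.35 percentage points, and leaving out lightest fish 3 gave 0.663. The 10 most abundant clusters alone held 30.1% ± 2.57 among heaviest fish, against 29.6% ± 1.83 among lightest fish (SD, n = 3 per group). Ranks 11 to 133 held 35.8% ± 1.99 and 35.0% ± 0.759 in the same groups. Counting down from each fish's own most abundant cluster, 50% of summed FPKM was reached after 52, 44 and 31 clusters in heaviest fish 1, 2 and 3 and after 45, 39 and 56 in lightest fish 1, 2 and 3. In bulk tissue, fewer cells of a type and less RNA per cell cannot be told apart, and this holds for every level given here.

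Within the 133 the levels were themselves steeply graded. A mean of 10000 FPKM or more was reached by 14 clusters, 12 lay between 5000 and 10000, 42 between 2000 and 5000 and 65 between 1000 and 2000. Their median was 2061 FPKM. Rank 1 was 1.51 times as high as rank 2 and 48.2 times as high as rank 133. The threshold cut through a continuous slope. The 3 clusters just inside it, ranks 131 to 133, averaged 1050, 1048 and 1033 FPKM, and the 3 just outside averaged 998, 995 and 990 FPKM. A level of 1000 FPKM or more in all 6 fish was held by 109 of the 133, and 24 were lower in at least 1 fish. The lowest value of any of them was 344 FPKM. Conversely, 30 clusters outside the set reached 1000 FPKM in at least 1 fish, 4 of them in 3 fish or more, and 1 reached 3248 FPKM in heaviest fish 1.

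**Figure D1:**
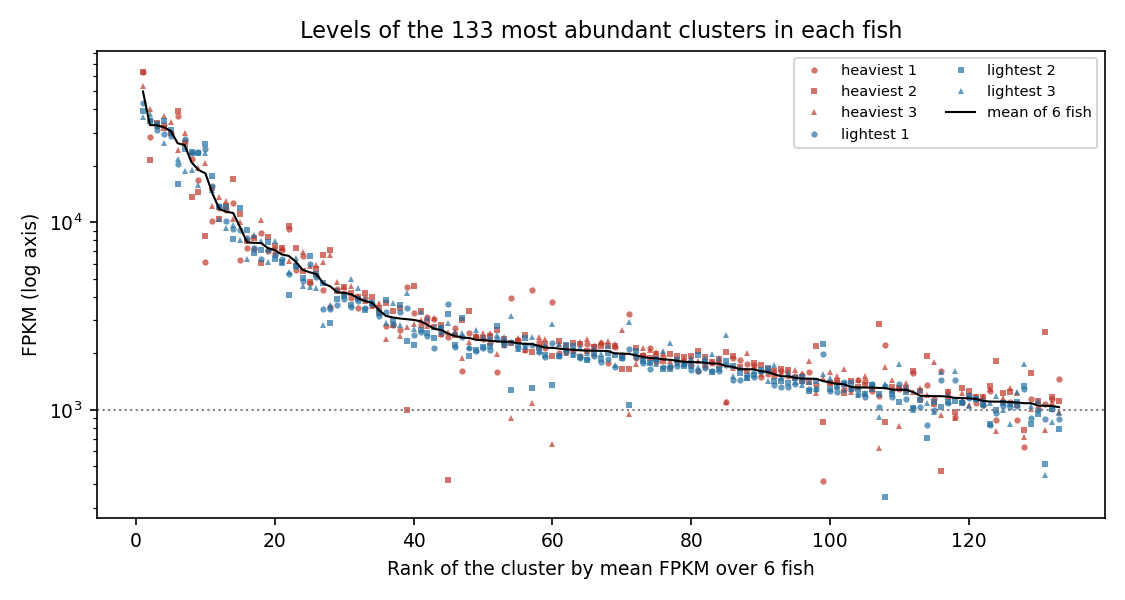
FPKM (log axis) of the 133 clusters in each of the 6 fish, by rank in mean FPKM. Points are single fish, the line is the mean of 6 fish and the dotted line marks 1000 FPKM. Most points lie close to the line, and single fish fall far below it at some ranks, such as heaviest fish 2 at rank 45.

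Of the leading clusters, 7 kept a place among the 10 most abundant in all 6 fish, which is 7 of the 12 clusters that were there in any fish. Rank 1 had 63127, 63268 and 53518 FPKM in heaviest fish 1, 2 and 3, against 43455, 39160 and 36253 FPKM in lightest fish 1, 2 and 3. All heaviest fish lay above all lightest fish. It was the top cluster in 5 of 6 fish, and in lightest fish 3 it came second to rank 2, at 37821 FPKM. Its share of summed FPKM was 6.03% ± 0.405 among heaviest fish, against 4.20% ± 0.386 among lightest fish (SD, n = 3 per group).

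Ranks 3, 4 and 5 formed a tier below it. Rank 3 had 32705, 33732 and 33949 FPKM in heaviest fish 1, 2 and 3, against 30945, 33580 and 32420 FPKM in lightest fish 1, 2 and 3. Its coefficient of variation over the 6 fish was 3.43%, one of the 3 smallest of the set, and the groups overlapped. Rank 4 ran from 31814 to 36971 FPKM among heaviest fish, and from 26441 to 34758 FPKM among lightest fish. Rank 5 ran from 29891 to 34258 FPKM among heaviest fish, and from 28930 to 31098 FPKM among lightest fish. Both overlapped between the groups, and rank 5 varied less, with a coefficient of variation of 6.14%, than rank 4, with 11.7%. No member of this tier left the 5 highest places in any fish.

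Ranks 2, 6 and 10 changed places more. Rank 6 had 36983, 39146 and 24196 FPKM in heaviest fish 1, 2 and 3, against 20317, 15920 and 21619 FPKM in lightest fish 1, 2 and 3. The groups did not overlap, but heaviest fish 3 lay nearer to the lightest fish than to the other 2 heaviest fish. Rank 10 showed the opposite arrangement, at 6129, 8477 and 20742 FPKM in heaviest fish 1, 2 and 3, against 24550, 26201 and 23269 FPKM in lightest fish 1, 2 and 3. Again heaviest fish 3 was close to the lightest fish. Within a fish, rank 6 held places 2 to 11 and rank 10 held places 6 to 23.

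Rank 2 was lowest in heaviest fish 2, with 28491, 21534 and 40132 FPKM in heaviest fish 1, 2 and 3, against 35149, 34704 and 37821 FPKM in lightest fish 1, 2 and 3. Heaviest fish thus gave both its lowest and its highest value. Rank 8 was also lowest in heaviest fish 2, at 13694 FPKM, against 18921 to 23805 FPKM in the other 5 fish. Rank 9 ran from 14438 to 19566 FPKM among heaviest fish, and from 15845 to 23745 FPKM among lightest fish, and rank 7 from 26442 to 30069 FPKM and from 18665 to 27884 FPKM in the same groups. Ranks 7, 8 and 9 overlapped between the groups.

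**Figure D2:**
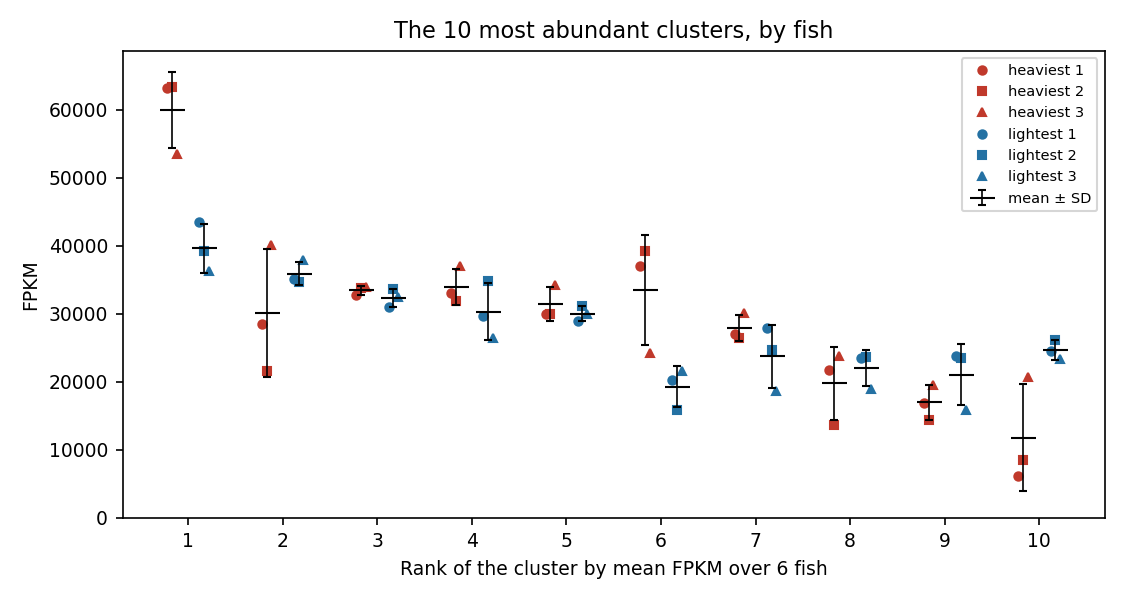
FPKM of the 10 most abundant clusters, with heaviest fish on the left and lightest fish on the right of each rank. Points are single fish, and bars give the mean ± SD of 3 fish. The groups are apart at ranks 1, 6 and 10, and at rank 3 all 6 fish lie between 30945 and 33949 FPKM.

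Rank order over the whole set was largely shared between fish. Spearman's correlation of levels across the 133 clusters, which are not independent replicates, ran from 0.828 to 0.980 over the 15 pairs of fish. The 3 pairs of lightest fish were at 0.917 to 0.980, while the pairs of heaviest fish were at 0.828, 0.848 and 0.879. Pairs across the groups covered 0.849 to 0.937. Averaged over its pairs, heaviest fish 2 had the lowest correlation, 0.849, while the remaining fish had 0.879 to 0.921. Without heaviest fish 2, and with clusters chosen again, the median over pairs was 0.922 in place of 0.879. Typical differences in level were small: the median absolute difference between 2 fish was 0.07 to 0.24 on the log2 scale.

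Places moved more in the lower part of the set, where levels lie close together. The median distance between a cluster's best and worst place in a fish was 17 places over all 133 and 6 places over ranks 1 to 44. For 21 clusters it was 5 places or fewer, and for 22 it was over 50. Rank 45 had the widest levels, 423 FPKM in heaviest fish 2 and 3680 FPKM in lightest fish 1, 8.70 times as high, and stood at places 30 to 227. Rank 108 moved between places 63 and 242 and rank 99 between 49 and 236. In all, 105 of the 133 were among the 133 most abundant clusters of every fish.

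Spread between fish was small for most of these clusters and large for a minority. The median coefficient of variation over the 6 fish was 10.3%, against 19.9% for the 479 clusters of 100 to 1000 FPKM and 25.5% for the 4370 of 10 to 100 FPKM. It was under 10% in 62 of the 133 (46.6%), against 13.4% and 5.1% in those lower classes. Lower classes rest on fewer fragments for a given length, and the part of counting error in these figures was not tested. Within the weight groups the median SD was 0.13 on the log2 scale, against 0.25 and 0.33 in the lower classes. Scaled to equal summed FPKM of the remaining clusters, the median coefficient of variation of the 133 was 15.6%. That scaling divides all 133 clusters of a fish by the same factor, which enters each coefficient by construction.

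The steadiest was rank 121, at 1086, 1169 and 1188 FPKM in heaviest fish 1, 2 and 3, against 1136, 1134 and 1142 FPKM in lightest fish 1, 2 and 3. Its coefficient of variation was 3.07%, followed by rank 106 with 3.38% and rank 3 with 3.43%. At the other end, 37 clusters exceeded 20% and 13 exceeded 40%. Rank 131 had the largest value, 75.5%, with 1067, 2598 and 778 FPKM in heaviest fish 1, 2 and 3, against 894, 512 and 451 FPKM in lightest fish 1, 2 and 3. A single fish, heaviest fish 2, was far above the rest, and the mean of the remaining fish was 740.3 FPKM. Rank 107 was likewise highest in heaviest fish 2, at 2867 FPKM, and lowest in heaviest fish 3, at 622 FPKM, with a coefficient of variation of 60.7%. Rank 57 followed with 51.6%, from 4340 FPKM in heaviest fish 1 to 1088 FPKM in heaviest fish 3. The 10 most variable clusters carried 53.4% of all variance of log2 levels in the set, and the 20 most variable carried 73.9%.

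**Figure D3:**
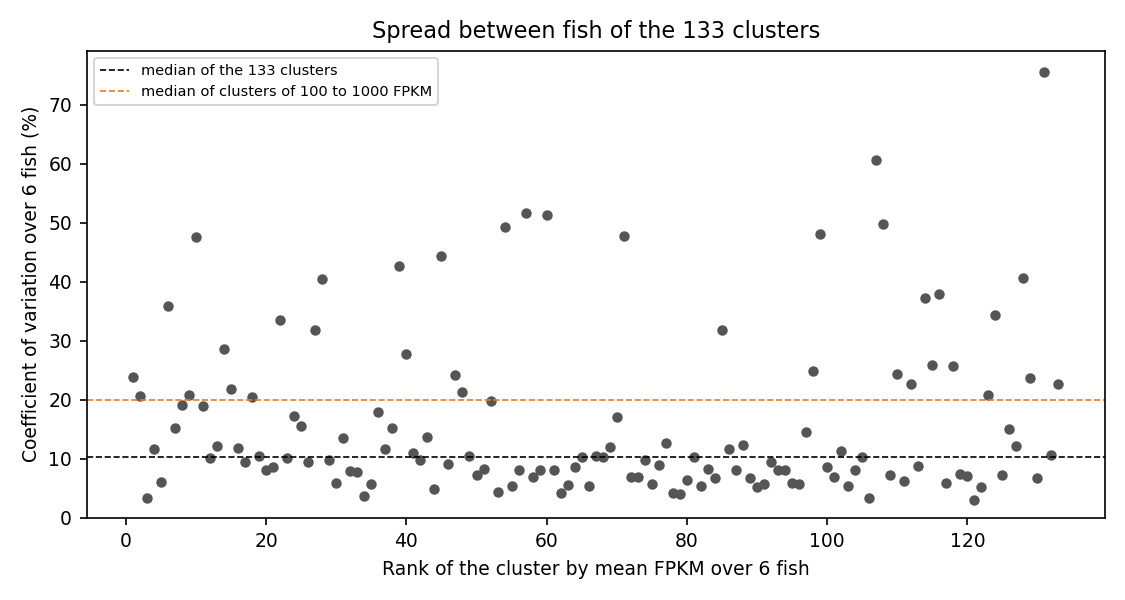
Coefficient of variation over the 6 fish, in percent, of each of the 133 clusters by rank, 1 point per cluster. Dashed lines give the median of the set, 10.3%, and of clusters of 100 to 1000 FPKM, 19.9%. Values above 40% occur along the whole range of ranks, including rank 10.

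The clusters were sorted by their pattern over the fish. Average linkage on Pearson correlation of log2(FPKM + 1) over the 6 fish, with groups formed at a distance of 0.5, gave 9 patterns of 4 to 33 clusters and 1 cluster alone, rank 108. These patterns were drawn from the values they describe and carry no test. Such a cut forms groups from almost any values, so their presence does not show that clusters move together. Fish share the FPKM scaling, in which a rise in 1 large cluster lowers the values of all others, so part of any correlation is built in.

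A pattern of 24 clusters led by rank 1 also held ranks 6, 14, 22, 28 and 33. Their median deviation from their own mean was 0.16, 0.25 and 0.02 on the log2 scale in heaviest fish 1, 2 and 3, against -0.19, -0.27 and -0.04 in lightest fish 1, 2 and 3. Together they held 16.1% of summed FPKM among heaviest fish, against 11.5% among lightest fish. Much of that was rank 1, with 6.03% and 4.20% in the same groups. Rank 6 held 2.52% to 3.93% among heaviest fish, and 1.71% to 2.28% among lightest fish. All 24 clusters of the pattern had a higher mean log2 level in the heaviest fish. Of these, ranks 114, 123, 129, 131 and 133 averaged under 1000 FPKM among lightest fish, so their differences are not independent of the choice. Inside the pattern, ranks 6 and 22 followed each other almost exactly, with a Pearson r of 0.999 over the 6 fish. Rank 22 had 9189, 9493 and 6234 FPKM in heaviest fish 1, 2 and 3, against 5285, 4097 and 5399 FPKM in lightest fish 1, 2 and 3. As with rank 6, heaviest fish 1 and 2 stood above the other 4. The 3 clusters most like rank 1 over the 6 fish were ranks 112, 21 and 132, with a Pearson r of 0.965, 0.940 and 0.936. Of these only rank 112 was in this pattern. Ranks 21 and 132 fell in the pattern led by rank 4, so the patterns are not sharply separate. Whether clusters that follow each other closely are pieces of 1 gene, copies of a gene or separate genes is not known here.

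Running against it, ranks 10, 99, 118 and 128 made up a small pattern that was lower in all heaviest than in all lightest fish. Its median deviation was -1.02, -0.45 and -0.03 on the log2 scale in heaviest fish 1, 2 and 3, against 0.49, 0.56 and 0.53 in lightest fish 1, 2 and 3. It held 1.44% of summed FPKM among heaviest fish, against 3.12% among lightest fish. Most of that was rank 10, with 0.598%, 0.852% and 2.16% in heaviest fish 1, 2 and 3. In lightest fish 1, 2 and 3 rank 10 held 2.59%, 2.82% and 2.45%. Ranks 99, 118 and 128 averaged under 1000 FPKM among heaviest fish, so their differences are not independent of the choice. Rank 99 had 416, 863 and 1477 FPKM in heaviest fish 1, 2 and 3, against 1988, 2241 and 1556 FPKM in lightest fish 1, 2 and 3. Rank 10 had a Pearson r of -0.94 with rank 6 and of -0.87 with rank 1 over the 6 fish.

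Other patterns stood out in single fish. Ranks 2, 8, 39, 45 and 116 were lowest in heaviest fish 2, where their median deviation was -1.22 on the log2 scale, against 0.20 and 0.21 in heaviest fish 1 and 3 and 0.35, 0.10 and 0.44 in lightest fish 1, 2 and 3. Rank 45 gave the sharpest case, with 2438, 423 and 2603 FPKM in heaviest fish 1, 2 and 3, against 3680, 3221 and 2887 FPKM in lightest fish 1, 2 and 3. Ranks 54, 57, 60, 71 and 110 were spread widely over both groups. Their median deviation was 0.94, 0.05 and -0.91 in heaviest fish 1, 2 and 3, against 0.16, -0.63 and 0.62 in lightest fish 1, 2 and 3. Rank 60 had 3765, 1936 and 656 FPKM in heaviest fish 1, 2 and 3, against 2260, 1357 and 2855 FPKM in lightest fish 1, 2 and 3. The summed FPKM of all clusters outside the set was also highest in heaviest fish 1 (385774) and lightest fish 3 (352925) and lowest in heaviest fish 3 (290786) and lightest fish 2 (313431). The part of that sum in this pattern was not tested.

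The 2 largest remaining patterns consisted of small shifts. The pattern led by ranks 4, 5 and 7 held 33 clusters with 19.4% of summed FPKM among heaviest fish, against 18.0% among lightest fish. Its median deviation was 0.05, 0.01 and 0.17 on the log2 scale in heaviest fish 1, 2 and 3, against -0.10, -0.04 and -0.10 in lightest fish 1, 2 and 3. Ranks 126 and 132 of this pattern averaged under 1000 FPKM among lightest fish, so their differences are not independent of the choice. The pattern led by rank 17 held 29 clusters with 7.28% of summed FPKM in both groups, and its deviations ran from -0.13 in lightest fish 1 to 0.10 in heaviest fish 3. The remaining patterns, of 18, 8 and 6 clusters, were led by ranks 11, 3 and 9.

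Over all 8778 pairs of the 133 clusters the median Pearson r was 0.22. Pairs above 0.9 numbered 262 (2.98%), and those below -0.9 numbered 40 (0.456%). Among clusters of 100 to 1000 FPKM the median was 0.06, with 3.09% of pairs above 0.9 and 0.976% below -0.9. High correlations were thus no more frequent in the set than in that class. After group means were subtracted the medians were 0.11 for the set and 0.12 for the lower class. Correlation over 6 fish is coarse. The median ran from 0.15 to 0.31 when each fish was left out and clusters were chosen again. Dividing each fish by the summed FPKM of the remaining clusters raised the median for the 133 clusters to 0.56. All 133 clusters of a fish are then divided by the same factor, 0.866 to 1.15 over the fish, which enters every r by construction. FPKM as deposited also carries 1 factor per fish, so 0.22 depends on scaling too.

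**Figure D4:**
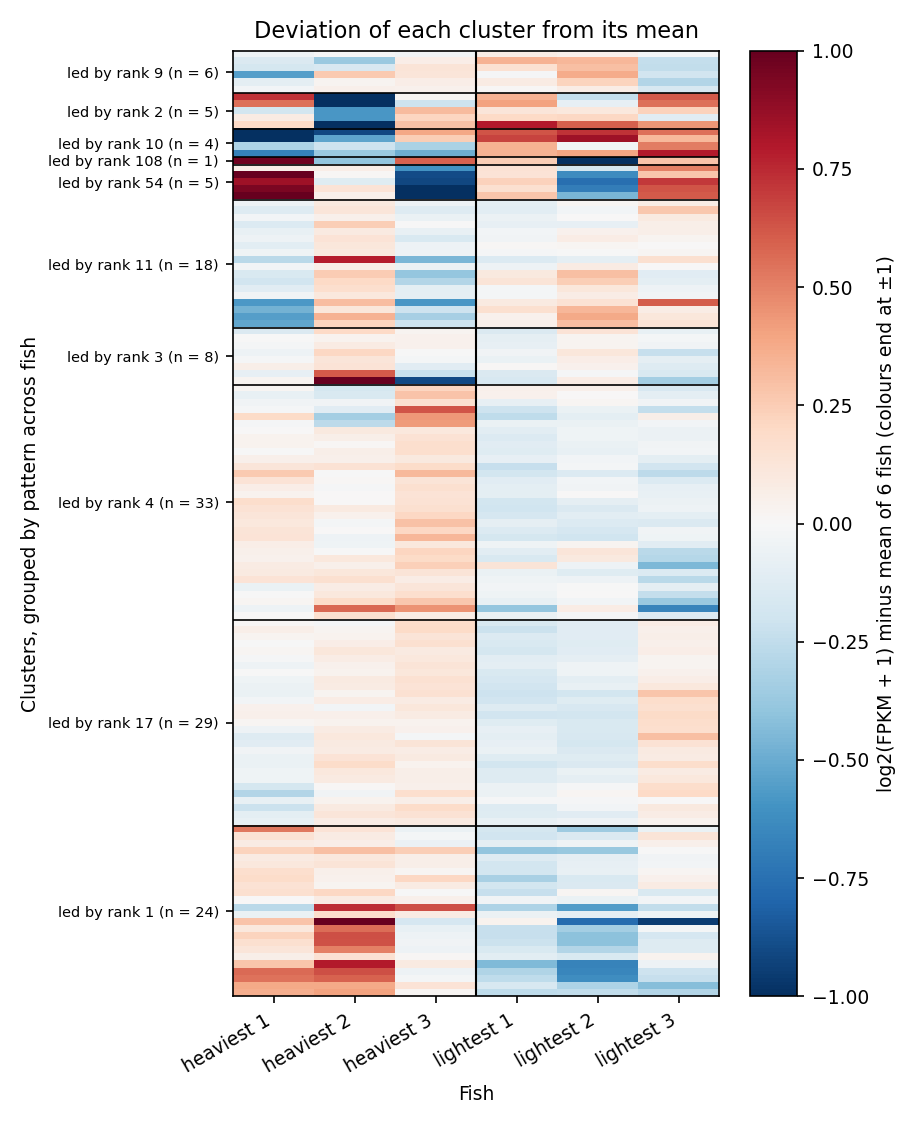
Deviation of log2(FPKM + 1) from the cluster's mean over 6 fish (colour, ending at ±1), with 1 line per cluster and 1 column per fish, heaviest fish on the left. Black lines separate the patterns, each named by its most abundant cluster. The strongest colours lie in small patterns such as those led by ranks 2, 10 and 54, while the patterns of 33 and 29 clusters are pale.

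Between the weight groups, 2 of the 133 clusters passed limma's test at an adjusted p under 0.05, 1 in each direction. That is 1.5%, against 1.22% of all 28592 clusters tested, those of 1 FPKM and over on average, so the share is near the background. By direction it is 0.752% of the set each way, against 0.574% of all clusters tested for higher and 0.651% for lower. Rank 1 (Cluster-6468.32158) rose in the heaviest fish, with 59971 ± 5589 FPKM among heaviest fish, against 39623 ± 3623 FPKM among lightest fish (SD, n = 3 per group). The log2 fold change of 0.60 had an SE of 0.09 (limma, Benjamini-Hochberg adjusted p = 0.0387). Rank 128 (Cluster-6468.32296) passed as lower. It had 634, 783 and 720 FPKM in heaviest fish 1, 2 and 3, against 1286, 1331 and 1750 FPKM in lightest fish 1, 2 and 3, with no overlap. All its heaviest fish lay under 1000 FPKM, so it belongs to the set through its lightest fish and its difference is not independent of the choice. The log2 fold change of -1.02 had an SE of 0.15 (limma, Benjamini-Hochberg adjusted p = 0.0376). Each call held in 4 of 17 other settings, with limma adjusted p from 0.0167 to 0.765 for rank 1 and from 0.0244 to 0.428 for rank 128. The value of 0.765 is from quantile normalization, which by construction gives the top cluster of each fish the same level, and the next highest adjusted p of rank 1 was 0.512, from limma without a trend. Leaving out 1 fish gave 0 to 3 calls in the set: 1 without heaviest fish 1 (rank 28), 3 without heaviest fish 3 (ranks 1, 10 and 112) and 0 without any other fish. Of all clusters tested then, 0.773% to 1.10% passed.

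Of the clusters whose groups were fully apart, the next by p in each direction did not pass. Rank 21 (Cluster-6468.32220) had 7125, 7271 and 7332 FPKM in heaviest fish 1, 2 and 3, against 6389, 6151 and 6092 FPKM in lightest fish 1, 2 and 3. The groups were apart by more than their spread, at a log2 fold change of 0.22 with an SE of 0.05 (limma adjusted p = 0.194). Rank 118 (Cluster-6468.18920) had 910, 974 and 905 FPKM in heaviest fish 1, 2 and 3, against 1433, 1108 and 1610 FPKM in lightest fish 1, 2 and 3. It too had all heaviest fish under 1000 FPKM. The log2 fold change of -0.56 had an SE of 0.15 (limma adjusted p = 0.315).

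The 3 largest fold changes in each direction belonged to clusters that vary strongly within a group, and none passed on FPKM as deposited with all 6 fish. Rank 10 had a log2 fold change of -1.27 with an SE of 0.42 (limma adjusted p = 0.472), and without heaviest fish 3 it was -1.77 (limma adjusted p = 0.0113). Ranks 99 and 45 were at -1.23 and -1.22, with SEs of 0.44 and 0.68 (limma adjusted p = 0.539 and 0.700). Rank 99 was at -0.76 without heaviest fish 1, and rank 45 at -0.37 without heaviest fish 2. In the other direction rank 131 was at 1.13 with an SE of 0.48 (limma adjusted p = 0.589), rank 108 at 0.78 with an SE of 0.61 (limma adjusted p = 0.795) and rank 6 at 0.77 with an SE of 0.20 (limma adjusted p = 0.3002). With median-ratio scaling rank 6 passed (limma adjusted p = 0.0346). Rank 131 was at 0.62 without heaviest fish 2. Rank 108 was at 0.49 without heaviest fish 1, 1.18 without heaviest fish 2 and 0.12 without lightest fish 2. Ranks 131 and 108 overlapped between the groups. Rank 99 averaged under 1000 FPKM among heaviest fish and rank 131 among lightest fish, so their differences are not independent of the choice.

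Most fold changes were small. In the set, 85 of 133 lay within 0.2 of 0 on the log2 scale, 12 were above 0.5 and 7 below -0.5. The median log2 fold change was 0.10, against -0.03 over all clusters tested and 0.02 over those of 100 to 1000 FPKM. It was above 0 in 98 of the 133 (73.7%), against 46.8% of all clusters tested and 50.9% of those of 100 to 1000 FPKM. The sums of FPKM themselves were higher in the heaviest fish, at 1024978, 995333 and 959547 in heaviest fish 1, 2 and 3, against 947297, 930285 and 950215 in lightest fish 1, 2 and 3, a log2 ratio of group means of 0.08. Scaled to equal sums, the median log2 fold change of the set was 0.03, against -0.08 over all clusters tested, and 77 of 133 (57.9%) were above 0, against 41.4% of all clusters tested. The count above 0 was 109 with median-ratio scaling and 95 with equal summed FPKM of the clusters outside the set. It was 63 with quantile normalization, which equalises the top of every fish by construction. The 10 clusters that pass through 1 group alone are counted here, and their sign is not independent of the choice.

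In 33 of the 133 clusters (24.8%) every heaviest fish lay above every lightest fish, and in 5 (3.76%) every heaviest fish lay below. The shares were 4.95% and 8.26% of all clusters tested, and 11.5% and 12.7% of those of 100 to 1000 FPKM. In either direction the shares were 28.6% of the set, 24.2% of that class and 13.2% of all clusters tested. With equal summed FPKM the counts in the set were 17 (12.8%) and 7 (5.26%), against 4.14% and 10.9% of all clusters tested. With equal summed FPKM of the clusters outside the set they were 13 (9.77%) and 2 (1.5%), against 5.58% and 8.84%. With median-ratio scaling they were 22 (16.5%) and 2 (1.5%), against 7.11% and 7.04%. Quantile normalization gives the highest clusters of every fish the same set of values by construction, and left 9 in each direction (6.77%), against 7.04% of all clusters tested for higher and 7.22% for lower. Of the 33, 21 had a log2 fold change under 0.3, 4 lay between 0.3 and 0.5, and 8 were over 0.5. All 33 were in the patterns led by rank 4, with 19, and by rank 1, with 14. Patterns were formed without subtracting group means, so clusters apart in the same direction tend to fall together by construction. The 5 lower ones were ranks 10, 45, 99, 118 and 128, singled out after their values were seen, with log2 fold changes of -1.27 to -0.56. A mean under 1000 FPKM among heaviest fish was found in 3 of these 5 (ranks 99, 118 and 128), and a mean under 1000 FPKM among lightest fish in 5 of the 33, so these 8 had to differ to be in the set. Fewer fish overlap less easily: the higher count was 50 without heaviest fish 1 (against 6.83% of all clusters tested then) and 61 without lightest fish 3 (9.98%), and the lower count was 19 without heaviest fish 2 (19.3%) and 10 without lightest fish 3 (10.4%).

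In summed FPKM, higher and lower clusters partly offset each other. The 133 together were at 653428 ± 14809 FPKM among heaviest fish, against 608398 ± 10048 FPKM among lightest fish (SD, n = 3 per group). The difference of 45029 FPKM was made of 83131 FPKM over the 98 clusters with a higher mean in the heaviest fish and -38101 FPKM over the 35 with a lower mean. Clusters were sorted by the sign of their own difference, so sums of opposite sign that offset each other arise by construction. These sums include the 10 clusters whose differences are not independent of the choice. Rank 1 alone accounted for 20348 FPKM, and ranks 1 and 6 together for 34504 FPKM. Ranks 2, 8, 9 and 10 together accounted for -25033 FPKM. Outside the set the summed FPKM was 339858 ± 47573 among heaviest fish, against 334201 ± 19826 among lightest fish (SD, n = 3 per group), a difference of 5657 that is smaller than either SD. Summed FPKM of all clusters was itself 50687 higher among heaviest fish, and the differences given here were not scaled for that. As a share of summed FPKM, the set differed by 1.31 percentage points, against SDs of 3.68 and 1.73 among heaviest and lightest fish.

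**Figure D5:**
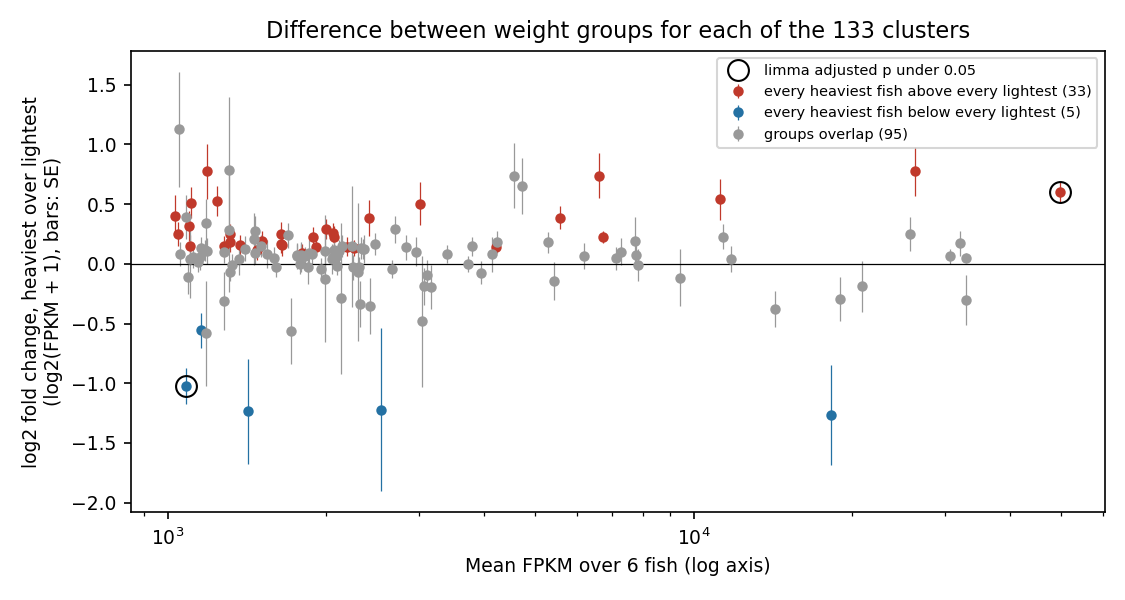
Log2 fold change of the heaviest over the lightest fish with its SE, on the log2(FPKM + 1) scale, for each of the 133 clusters against mean FPKM (log axis). Colours show whether the 3 heaviest fish lie above all lightest fish (33), below them (5) or overlap (95), and rings mark ranks 1 and 128, which passed limma's test. Of the 98 points above 0, 80 lie under 0.3.

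The IDs of the 133 clusters had a feature that the rule did not use. A cluster ID consists of 2 numbers, and the first was 6468 in all 133, as in 60758 of the 89579 clusters of the table (67.8%) and in all 479 clusters of 100 to 1000 FPKM. The second number runs up to 60757 among clusters with that first number. It lay from 31000 to below 33000 in 117 of the 133 (88.0%), in 52.2% of those of 100 to 1000 FPKM, in 15.1% of those of 10 to 100 FPKM and in 3.29% of all 60758, each among clusters with first number 6468. That range was set after the numbers of the set were seen, so these shares carry no test. Clusters 5 or fewer numbers apart formed 41 neighbouring pairs in the set, with a median Pearson r of 0.35 over the 6 fish, against 0.22 over all pairs. The cut of 5 carries no test, and no such value was taken for the lower classes. The median over all pairs itself ran from 0.15 to 0.31 when each fish was left out and clusters were chosen again. Nothing in the labels or file headers says how the numbers were assigned.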

How the data were processed

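Expression in back muscle of 6 fish was read from a deposited table in FPKM with 1 column per fish, rounded to 2 decimals; assembler, aligner, counting and clustering of the authors: not given in the sources used here. Groups and replicate numbers came from the labels. No read counts were used, so depth and its precision are unknown. The limma test (limma 3.58.1, R 4.3.3) used log2(FPKM + 1), 2 groups, a variance trend, two-sided p and Benjamini-Hochberg adjustment over all 28592 clusters averaging 1 FPKM or more, at 0.05, and its step was tested on simulated data. Fold changes on this scale understate those of low clusters. Shares, ranks, coefficients of variation and correlations came from pandas 2.3.3, scipy 1.17.1 and numpy 2.4.6 in Python 3.11.15 and carry no test. Clusters named were the 10 most abundant, the 3 with the largest and smallest variation and fold change, the 3 at the threshold, the 3 most like rank 1, and by ID the 2 per direction with the smallest p among those without overlap. Other ranks were given as members of a pattern after their values were seen. Members, lists and rules were chosen with earlier results of these data known. Alternatives were other pseudocounts, filters, scalings, variance models, thresholds, a replicate block and each fish left out. The deposited tables of transcript lengths, assembly summary and FPKM intervals were not used, since they cannot be joined to single clusters.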

Additional observations from a re-analysis of the deposited data

How the results depend on the processing

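All alternatives were labelled as planned, but members, lists and rules were chosen with earlier results of these data known. For limma calls, percentages in brackets give the share called among all clusters tested, 1.22% in the main setting. The 2 limma calls among the 133 clusters became 0 with equal summed FPKM of clusters outside the set (1.28%), with a mean of at least 5 FPKM (0.682%) and with no filter (0.613%). They were also 0 without a trend (1.72%) and among clusters above 0 in all 6 fish, where no cluster at all was called (0%). They became 1 with a pseudocount of 0.1 (1.56%), with quantile normalization (1.25%) and with a replicate block (0.570%). Median-ratio scaling also gave 2 calls (1.28%), but both higher (ranks 6 and 22), and leaving out each fish gave 0 to 3 (0.773% to 1.10%). The median log2 fold change of 0.10 was 0.027 with equal summed FPKM, 0.17 with median-ratio scaling, -0.017 with quantile normalization (which equalises the top of every fish by construction) and 0.08 to 0.14 with each fish left out. For the counts without overlap, brackets give the share of all clusters tested. Clusters higher in every heaviest fish, 33 (4.95%), numbered 13 with equal summed FPKM outside the set (5.58%) and 17 with equal summed FPKM (4.14%). They numbered 22 with median-ratio scaling (7.11%), 9 with quantile normalization (7.04%) and 35 to 61 with each fish left out (6.68% to 13.2%). Those lower, 5 (8.26%), numbered 2 with equal summed FPKM outside the set (8.84%) and 2 with median-ratio scaling (7.04%). They numbered 9 with quantile normalization (7.22%) and 5 to 19 with each fish left out (10.4% to 19.3%). Leaving out each fish and choosing again gave 130 to 137 clusters, a share of 64.6% to 66.0%, a difference in share of -0.38 (without heaviest fish 3) to 3.03 percentage points, a median coefficient of variation of 9.43% to 10.7%, a median r of 0.15 to 0.31 and a median Spearman correlation of 0.861 to 0.922. The share was 69.8% at 500 FPKM and 55.5% at 2000 FPKM, by construction. Scaling to clusters outside the set, which divides all 133 in a fish by the same factor, gave a median coefficient of variation of 15.6% and a median r of 0.56. FPKM as deposited also carries 1 factor per fish. The SD within groups was 0.13 on the log2 scale, and deviations from group means gave a median r of 0.11. Uncalled fold changes near 0 changed sign for rank 3 (-0.024 with equal summed FPKM, -0.055 with quantile normalization), rank 5 (-0.013 with equal summed FPKM, -0.0035 without heaviest fish 3, up to 0.095 without other fish) and rank 8 (0.056 without heaviest fish 2, down to -0.34 without other fish). The cause was not tested where construction does not give it. With the replicate block, rank 1 was the call. The numbers share no stated origin, and whether they mark a pairing was not tested. Over all clusters tested, deviations of fish of the same number correlated at 0.17, 0.065 and 0.056. Fish of different numbers were at -0.104 to 0.051, the highest being heaviest fish 3 with lightest fish 2. Each fish thus correlated best with its own number, in part by a narrow margin. The deviations were from group means and cancel within a group, so these correlations constrain each other and the matches are not separate results. Over the 133 clusters, fish of the same number correlated at 0.38, 0.20 and -0.34, and those of different numbers at -0.65 to 0.49. There, 2 of 6 fish correlated best with their own number.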
